A study of Mus musculus with 14 samples.

Results

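The Hes, Hey and Id repressors are a set of 9 genes (Hes1, Hes5, Hes6, Hey1, Hey2, Id1, Id2, Id3 and Id4) out of 22367 annotated protein-coding genes. They were examined in the list of 13463 regions marked by acetylation of lysine 27 of histone H3 (H3K27ac), obtained by chromatin immunoprecipitation and sequencing (ChIP-Seq) from mouse retina at embryonic day (E) 14. For each gene, all peaks that overlapped the gene body or the 50 kb on either side were taken, which gave 28 peaks. Positions are on mm9, with gene models of GENCODE vM1.

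The series has 14 samples from E14 and early post natal retina, and was made to follow the LIM homeodomain factor LHX2 in retinal progenitor cells (RPCs) with and without Lhx2. The sample used here came from CD1 mice with no deletion named in its title, its labels call the cells RPCs, and the methods describe whole dissected retinas as the starting material for ChIP. A pair of replicate immunoprecipitations was pooled by the authors and compared with 1 isotype control library, so each peak has 1 value. No replicate error can therefore be given for any value below, and no test was made. All peaks share the same libraries and depth, 113543038 ChIP and 9210563 control tags after filtering. In tissue with several cell types, a mark carried by fewer cells and a weaker mark in each cell cannot be told apart.

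H3K27ac is found at active promoters and enhancers. The Hes and Hey genes encode basic helix-loop-helix (bHLH) proteins. Hes1, Hes5, Hey1 and Hey2 encode repressors that Notch signaling switches on through the DNA-binding protein RBPJ, and Hes1 and Hes5 hold neural progenitors back from differentiation, while Hes6 is not a typical Notch target. The Id genes encode helix-loop-helix proteins with no basic region, which bind E proteins and keep them from pairing with proneural factors, and they are classical targets of bone morphogenetic protein (BMP) signaling through SMAD proteins.

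The upstream sequences of the 3 members that hold GTGGGAA, a form of the RBPJ site, are shown first. Other forms of the site were not searched, so lower-case letters and members without GTGGGAA may hold one. The search used the 250 bases before the first base of the coding transcript on both strands. GTGGGAA was found in this window in Hes1 (81 bases upstream of the TSS), in Hes5 (83 and, on the opposite strand, 226 bases upstream) and in Hey2 (189 bases upstream, opposite strand), and in none of the other 6 members, Hey1 included. Of 22362 windows of the same length before the 5′ ends of protein-coding genes, 5.08% held GTGGGAA. In the sequences below, read 5′ to 3′ along the gene, capitals mark GTGGGAA, its reverse complement TTCCCAC, and in Hes1 also the 6-letter core TGGGAA, which stands alone 66 bases upstream. The core alone was present in 21.0% of the windows.

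Hes1 (chr16:30065176-30065425, plus strand, mm9): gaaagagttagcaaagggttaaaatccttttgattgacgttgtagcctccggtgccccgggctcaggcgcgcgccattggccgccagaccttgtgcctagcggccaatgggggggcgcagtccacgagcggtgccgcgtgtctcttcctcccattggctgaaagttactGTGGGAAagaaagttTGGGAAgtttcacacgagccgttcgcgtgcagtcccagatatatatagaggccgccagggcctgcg

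Hes5 (chr4:154334782-154335031, plus strand, mm9): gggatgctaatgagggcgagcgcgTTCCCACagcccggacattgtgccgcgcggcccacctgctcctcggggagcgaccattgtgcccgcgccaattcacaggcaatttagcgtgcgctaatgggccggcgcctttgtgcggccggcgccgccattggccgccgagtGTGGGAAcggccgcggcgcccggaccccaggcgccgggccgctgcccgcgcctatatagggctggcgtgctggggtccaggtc

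Hey2 (chr10:30562608-30562857, minus strand, mm9): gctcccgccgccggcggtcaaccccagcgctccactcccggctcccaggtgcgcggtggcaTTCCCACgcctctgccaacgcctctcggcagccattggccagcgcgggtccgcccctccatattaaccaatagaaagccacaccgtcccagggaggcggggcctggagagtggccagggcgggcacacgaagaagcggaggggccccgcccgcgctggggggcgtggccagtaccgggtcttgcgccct

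The Hes1 and Hes5 windows lay wholly inside the H3K27ac peak of their gene, as did those of the other 6 members apart from Hey2. No base of the Hey2 window was in a peak.

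A TSS peak was defined as the peak nearest to an annotated TSS of the gene and no more than 1000 bp from it. Such a peak was present for 9 of 9 members, against 49.8% of all protein-coding genes. At 8 of them the peak covered the first base of the coding transcript. The exception was Hey2, whose peak began 43 bp inside the gene.

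Hes1, the best known Notch effector of progenitors, had a TSS peak of 4251 bp (chr16:30063080-30067330) with a mean pileup of 14.54. Pileup is the mean number of fragments lying over a position, expressed at the depth of the control library, and fold enrichment sets it against the local control background. Fold enrichment at Hes1 was 4.76. The peak reached 2346 bp upstream and 1904 bp downstream of the TSS, covered 83.8% of the gene record and held 3 of the 4 exons whole. By length it ranked 114 of 13463 (top 0.847%), while by pileup it ranked 7271 (top 54.0%). A long region of ordinary mean pileup lay over most of the gene.

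Hes5, a Notch target of neural progenitors and glia, had a TSS peak of 2421 bp (chr4:154334267-154336687) with a pileup of 16.23. Its fold enrichment of 5.59 was the highest of the 9 members and ranked 2732 (top 20.3%). The peak covered the gene and its 3 exons whole, with 765 bp upstream and 1655 bp downstream of the TSS, and it also touched the TSS of the non-coding RP24-89N4.5. It was among the longer peaks (rank 711, top 5.28%) and close to the middle by pileup (rank 5558, top 41.3%).

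Hes6, a family member that promotes rather than blocks neurogenesis in several settings, had a TSS peak of 3194 bp (chr1:93308685-93311878). Its pileup of 16.56 was the highest of the members, rank 5211 (top 38.7%), and its fold enrichment was 4.37. By length the peak ranked 287 (top 2.13%). It extended 2079 bp upstream and 1114 bp downstream of the TSS and covered 75.5% of the gene record. The 3 Hes genes were all within the longest 10% of peaks, as were 10.6% of the TSS peaks of protein-coding genes.

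Hey1 and Hey2, Notch targets best known from the heart and vessels, had smaller peaks. The Hey1 peak was 1377 bp long (chr3:8666522-8667898) with a pileup of 12.46 and a fold enrichment of 3.96, rank 3846 by length (top 28.6%). It held only the first exon whole and 14.1% of the gene record. The Hey2 peak was 326 bp long (chr10:30562239-30562564) with a pileup of 10.52 and a fold enrichment of 3.65. It was among the shortest of the list, rank 13308 (top 98.8%), with a q of 0.00382. Hey2 had the lowest value of the 9 members for length, pileup and fold enrichment.

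Among the Id genes, Id3 had the longest peak, 5273 bp (chr4:135695865-135701137), rank 42 of all peaks (top 0.312%). Its pileup was 12.93 (rank 8778, top 65.2%) and its fold enrichment was 3.94. The peak reached 3547 bp upstream of the TSS, farther than that of any other member. By length of the TSS peak, the protein-coding genes next above Id3 were Ldb1 (5292 bp) and Ddr1 (5315 bp), and those next below were Zfp462 (5242 bp) and Zfp536 (5208 bp). LDB1 is a cofactor of LIM homeodomain proteins.

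Id1 had a peak of 3640 bp (chr2:152560137-152563776), rank 187 by length (top 1.39%), with a pileup of 15.4 and a fold enrichment of 4.97. It covered the short gene and its 2 exons whole, with 1850 bp upstream of the TSS. Id2 had a peak of 1838 bp (chr12:25779795-25781632), rank 1693 (top 12.6%), with a pileup of 11.95 and a fold enrichment of 3.75. Id1 and Id3 were in the longest 10%, and Id2 lay just outside it.

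Id4, whose product can also act against the other Id proteins, had a peak of 1424 bp (chr13:48355843-48357266), rank 3558 (top 26.4%). Its pileup was 13.35 and its fold enrichment 4.33. The peak also lay at the TSS of A330033J07Rik, a long non-coding RNA gene, so it cannot be given to Id4 alone. It held none of the 3 exons whole and covered 18.0% of the gene record.

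**Figure D1:**
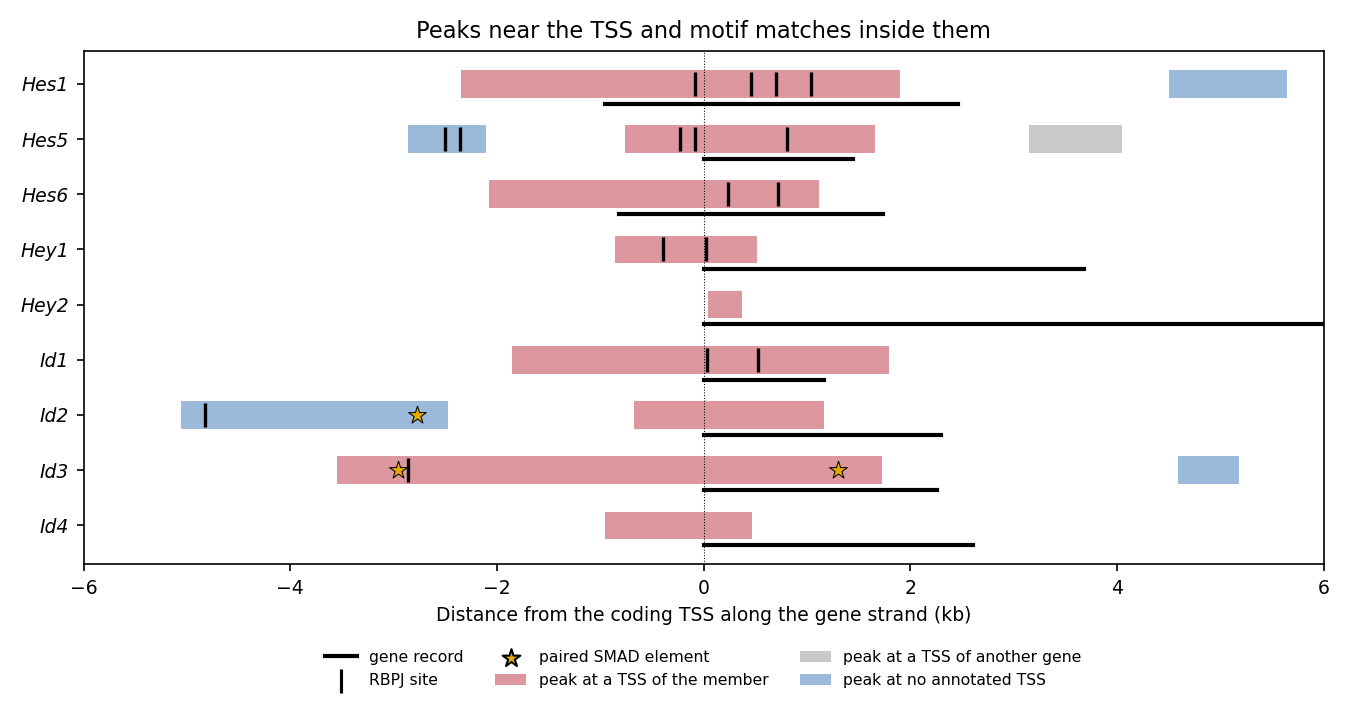
Peaks within 6 kb of the coding TSS of each member, drawn to scale in kb along the gene strand, with the gene record as a black line under each peak, vertical ticks at GTGGGAA on either strand, and stars at the paired SMAD element described in the text. The Id3 peak reaches farthest upstream (3547 bp), the Hey2 peak is 326 bp long, and GTGGGAA lies in the TSS peaks of 6 of the 9 members.

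The TSS peaks of the members were mostly longer and of lower mean pileup than the median TSS peak. The median length of the 9 TSS peaks was 2421 bp, against 1093 bp over 9866 distinct TSS peaks of protein-coding genes, and 8 of 9 were longer than that median. Their median pileup was 13.35 against 16.41, and only Hes6 was above. For fold enrichment the medians were 4.33 and 4.74, and 3 of 9 (Hes1, Hes5 and Id1) were above. The 9 genes are measured in the same libraries and are not replicates of one another, so these medians describe the list and were not tested. Long peaks of moderate pileup were not particular to these genes, since the 9 progenitor markers had a median length of 5974 bp at a median pileup of 15.42.

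The longest 10% of all peaks were 1973 bp or longer. They included 5 of the 9 members (Hes1, Hes5, Hes6, Id1 and Id3) and 10.6% of TSS peaks of protein-coding genes. The highest 10% by pileup included none of the members and 12.9% of TSS peaks, and the highest 10% by fold enrichment again none and 12.9%. In this list, long TSS peaks did not in general have a lower mean pileup. The 1005 TSS peaks of at least 2000 bp had a median pileup of 17.96, and the 263 of at least 3000 bp had 16.86, with 12.5 and 21.8 as the 10th and 90th percentiles. Of the 4 members of at least 3000 bp, Hes1 (14.54), Hes6 (16.56), Id1 (15.4) and Id3 (12.93) all lay under that median and inside those percentiles. Across the 9866 TSS peaks, Spearman's rho between length and pileup was 0.320, and across the 9 members it was 0.533. Peaks of a list share library, depth and the caller's thresholds, so these are descriptions.

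**Figure D2:**
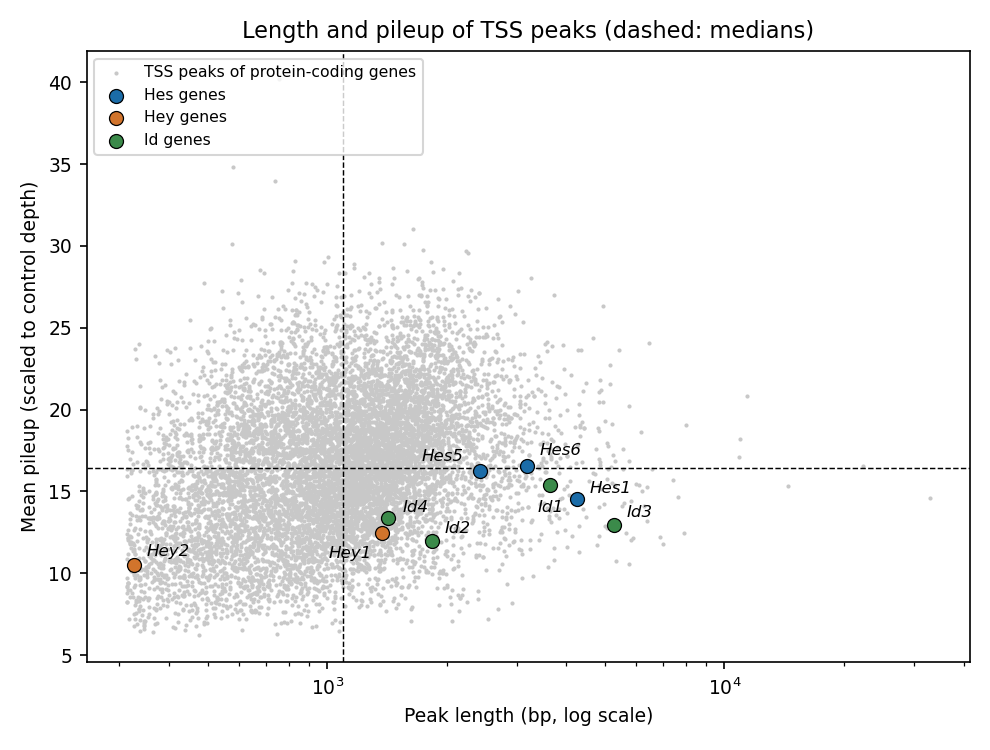
Mean pileup (scaled to control depth) against peak length (bp, log scale) for 9866 TSS peaks of protein-coding genes in gray, with the members coloured by family and dashed lines at the medians of 1093 bp and 16.41. Of the members, 8 lie to the right of the median length and 8 lie below the median pileup.

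**Figure D3:**
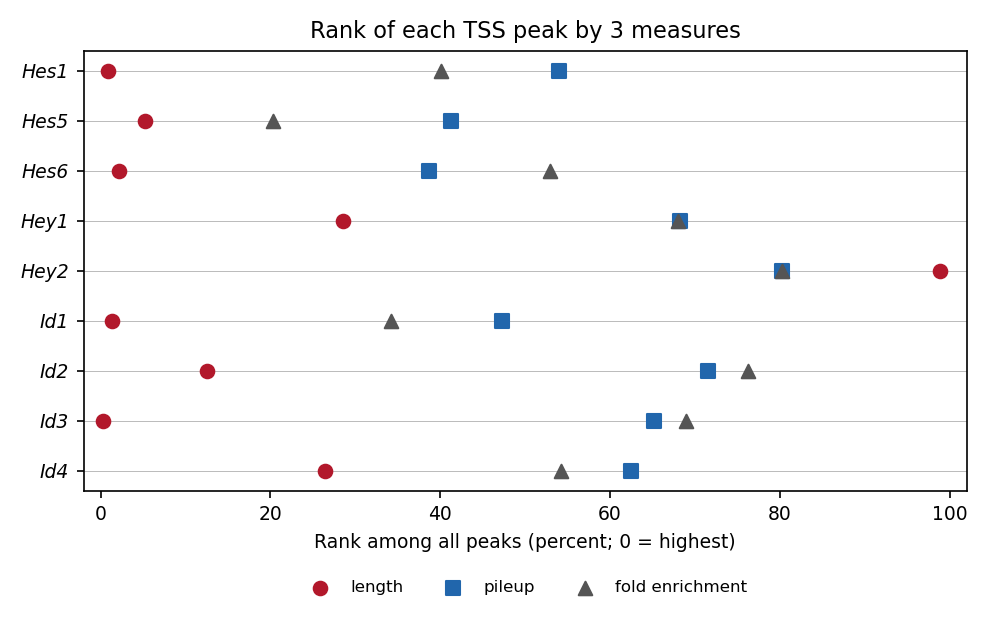
Rank of each member's TSS peak among 13463 peaks as a percent, where 0 is the highest, for length (circles), pileup (squares) and fold enrichment (triangles). The circles of Hes1, Hes5, Hes6, Id1 and Id3 lie under 10%, and no square or triangle does.

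The study's methods take peaks of high confidence from at least 2 replicates, with a p-value threshold. They also set a minimum fold enrichment of 4 and a false discovery rate of 0.001. Here only the limits of 4 for fold enrichment and 0.001 for q were applied, called the stricter limits. The values were those of whole broad regions in a pooled list, so support in each replicate was not tested. The stricter limits were met by 74.7% of TSS peaks and by 5 of the 9 members (Hes1, Hes5, Hes6, Id1 and Id4). Hey1, Hey2, Id2 and Id3 fell below a fold enrichment of 4. Hey2 and Id2 also exceeded the q limit, Id2 with a q of 0.00132. The Id3 peak was therefore among the longest of the list and below the limit for fold enrichment over its whole region at the same time.

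Of the 28 peaks in the windows, 9 were TSS peaks of the members, 8 lay within 1000 bp of a TSS of another gene and 11 lay at no annotated TSS. At least 1 peak of the last kind was present for 6 of 9 members, against 17.8% of all protein-coding genes. The exceptions were Hes6, Hey1 and Hey2. The median number of peaks in a window was 3 for the members and 1 for all protein-coding genes. Peaks covered a median of 4.87% of the members' windows, against 1.08%. These medians include the gene's own TSS peak, which all 9 members have and 49.8% of protein-coding genes have. No separate comparison was made with genes that have a TSS peak.

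Around Hes1, a peak of 1136 bp with a pileup of 15.04 and a fold enrichment of 5.49 lay 4.506 kb downstream of the TSS, past the end of the gene (chr16:30069932-30071067, intergenic). Another intergenic peak of 1367 bp lay 25.962 kb upstream with a pileup of 7.55. The near peak had about the same mean pileup as the TSS peak itself, and the far one had a lower value. Hes1 had no peak at a TSS of another gene in its window.

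Hes5 had a peak close by on either side. An intergenic peak of 758 bp (chr4:154332170-154332927, pileup 8.2) ended 1339 bp before the Hes5 TSS peak. The TSS peak of Pank4, a pantothenate kinase family gene, began 1493 bp after it and was higher (898 bp, pileup 20.85, fold enrichment 6.65). The intergenic peak held GTGGGAA 2 times on the opposite strand, 2507 and 2358 bases upstream of the TSS. The stretch with both matches is printed with them in capitals.

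Hes5 upstream peak (chr4:154332485-154332720, plus strand, mm9): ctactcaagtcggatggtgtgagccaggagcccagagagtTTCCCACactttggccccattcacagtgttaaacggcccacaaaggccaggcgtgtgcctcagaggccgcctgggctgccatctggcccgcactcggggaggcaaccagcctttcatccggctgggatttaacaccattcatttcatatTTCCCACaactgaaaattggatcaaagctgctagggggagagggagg

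Hes6 and the Hey genes had no peak away from a TSS. In the Hes6 window, the other peaks were those of Ilkap (974 bp, pileup 21.32, fold enrichment 3.80), 13.966 kb downstream of the TSS, and of the circadian gene Per2 (1086 bp, pileup 12.56), 45.751 kb upstream. In the Hey2 window the TSS peak of Ncoa7, a nuclear receptor coactivator gene, was 39.432 kb downstream of the Hey2 TSS, with a pileup of 24.7. The Hey1 window held the Hey1 peak alone. As many peaks as in the Hey1 window were found for 72.1% of protein-coding genes.

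The Id windows held 16 of the 28 peaks, 8 of them at no annotated TSS. Id1 had 6 peaks, a number reached by 4.81% of protein-coding genes. Upstream of Id1, peaks of 2188 bp (pileup 11.64) and 321 bp (pileup 9.64) lay inside H13, a signal peptide peptidase gene, 28.113 and 42.393 kb from the Id1 TSS. A further intergenic peak of 519 bp (pileup 8.94) lay 11.86 kb upstream. The others were at the TSS of the non-coding Gm17559 (376 bp, pileup 13.64) and of the cytochrome c oxidase gene Cox4i2 (805 bp, pileup 9.98). Since the peaks inside H13 lie in another gene, their link to Id1 is one of distance only.

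Id2 had an upstream intergenic peak of 2590 bp (chr12:25783429-25786018) that was longer and higher than its TSS peak, with a pileup of 14.12 against 11.95 and a fold enrichment of 4.26 against 3.75. It was separated from the TSS peak by 1796 bp and ranked 585 of all peaks by length (top 4.35%). A smaller peak of 557 bp (pileup 7.1) lay 28.172 kb upstream. Among the members, only Id2 had a flanking peak at no TSS that was longer than its own TSS peak.

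Id3 had 5 peaks, a number reached by 8.99% of protein-coding genes, and they covered 9.78% of its window, a share reached by 0.908% of genes. Upstream, a peak of 2401 bp (pileup 16.89, fold enrichment 4.87) lay 6.897 kb from the TSS, beside an annotated U6 small nuclear RNA. Downstream, intergenic peaks of 587 bp (pileup 10.36) and 358 bp (pileup 6.54) lay 4.594 and 16.233 kb away. The TSS peak of the cell cycle gene E2f2 (1378 bp, pileup 17.89) was 28.356 kb away. The mean pileup of the Id3 TSS peak was the lowest but for Hey1, Hey2 and Id2 among the members. Peaks nevertheless covered more of the Id3 window than of any other member's.

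Id4 had 1 flanking peak of 1322 bp (pileup 11.79, fold enrichment 4.57), 33.002 kb upstream and inside A330033J07Rik. The 11 peaks at no TSS in all windows had a median length of 758 bp and a median pileup of 9.64 (6.54 to 15.04). Over all 2855 peaks of the list at no annotated TSS, the medians were 801 bp and 9.9. The flanking peaks of the members were therefore of the usual size for their kind. Of the 11, 3 met the stricter limits (those downstream of Hes1, upstream of Id2 and upstream of Id4), as did 30.1% of all peaks at no annotated TSS.

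**Figure D4:**
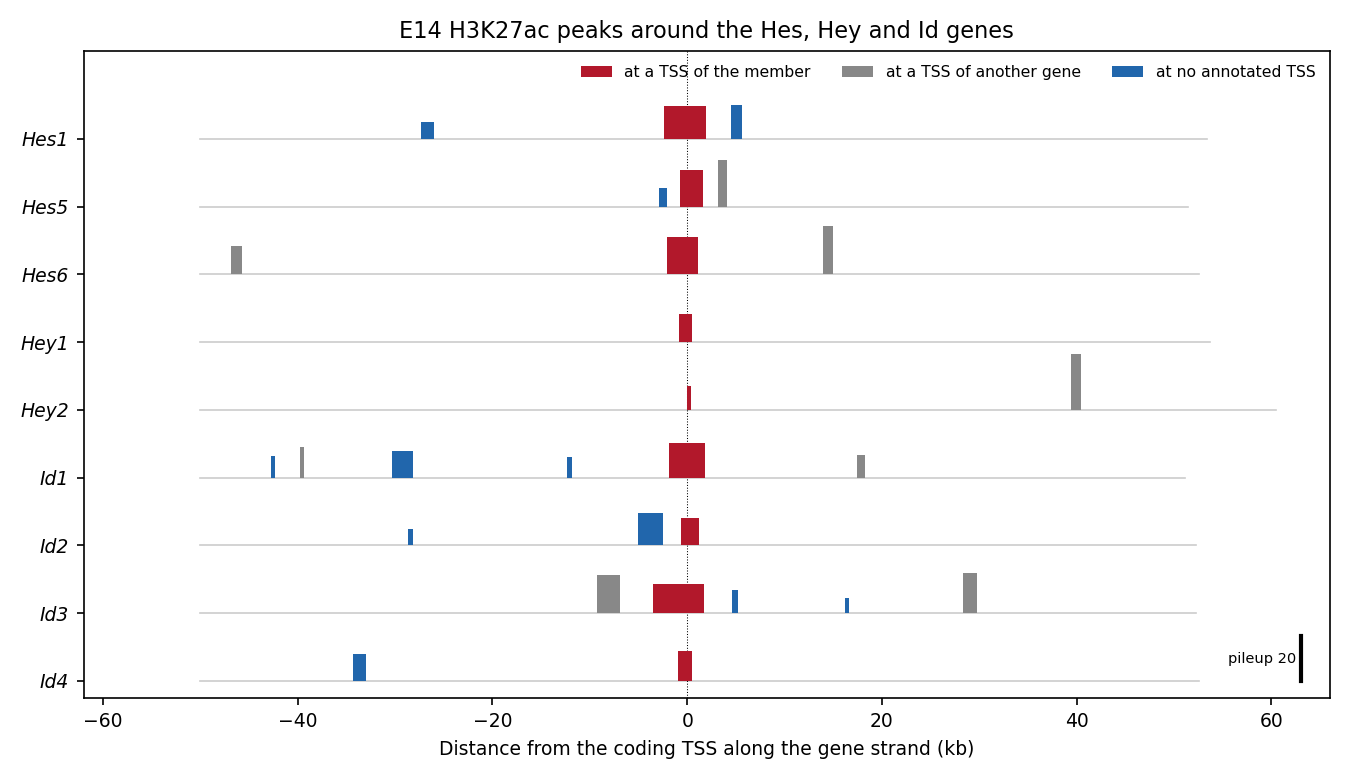
The 28 peaks in the windows of the 9 genes, by distance from the coding TSS along the gene strand (kb), with the height of a bar proportional to its mean pileup (scale bar, pileup 20) and the window as a gray line; peaks narrower than 0.35 kb are drawn at that width. Red bars are TSS peaks of the members (9), gray bars lie at a TSS of another gene (8) and blue bars at no annotated TSS (11), of which 8 are in Id windows.

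Inside the 9 TSS peaks, GTGGGAA occurred 14 times in 23744 bp, or 0.590 per kb, against 0.218 per kb over all TSS peaks. It was present in 6 of 9 members and in 22.2% of TSS peaks. In the 1005 TSS peaks of at least 2000 bp the density was 0.222 per kb and the share 44.8%. By family, the 3 Hes peaks held 9 matches (0.912 per kb), the 2 Hey peaks held 2 (1.17 per kb) and the 4 Id peaks held 3 (0.246 per kb). Each Hes peak had a higher density than each Id peak, while the Hey peaks lay at both ends (Hey1 1.45 per kb, Hey2 0). Hes1 had 4 matches, at 81 bases upstream and at 455, 701 and 1037 bases downstream of the TSS. Hes5 had 3, at 226 and 83 bases upstream and 809 bases downstream. Hes6 had 2, both downstream (234 and 721 bases), or 0.626 per kb, and Id1 also had 2 downstream (36 and 530 bases), or 0.549 per kb. Hey1 had 2, at 392 bases upstream and 18 bases downstream, and Id3 had 1, at 2857 bases upstream. Id2, Id4 and Hey2 had none in their TSS peaks, and the Hey2 match printed above lay outside its peak. A match says only that the letters are there, and the counts were not tested.

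Other letters were searched in the same 250 bases. CACNAG, the N-box that Hes proteins bind, was found 3 times in Hes1 and once each in Hes6, Id1 and Id3, and in 35.8% of windows. CACGNG, the class C site, was found 4 times in Hes1 and once in Hey1, and in 26.1%. CACGAG satisfies both, and 2 of the Hes1 matches are shared in this way. CANNTG, the E-box of bHLH activators, was found once each in Hes5, Hes6, Hey1, Hey2 and Id2, and in 63.6%. TGACG was found once each in Hes1 and Id3, and in 19.4%. GGCGCC, a GC-rich SMAD element, was found 4 times in Hes5 (123, 106, 69 and 54 bases upstream), once each in Hey1 and Id2, and in 11.1%. CpG dinucleotides numbered 19 in Hes1, 32 in Hes5, 17 in Hes6, 32 in Hey1, 25 in Hey2, 6 in Id1, 18 in Id2, 5 in Id3 and 17 in Id4, against a median of 8 over all windows. All members but Id1 and Id3 were above that median.

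Some BMP-responsive elements, including ones of Id genes, pair GGCGCC with GTCTG at a spacing of 5 bases, called here the paired SMAD element. This pair was searched after the positions of GGCGCC had been seen. It occurred in 21 of the 13463 peaks (0.156%) and in 2 of the 28 peaks in the windows, as 3 sites. Since longer peaks hold more letters, the rates per Mb of peak were 1.40 over all peaks and 67.6 in the windows. The pair was chosen because it is known from Id genes, so its presence at Id genes is no independent result. It lay 2776 bases upstream of the Id2 TSS, in the intergenic peak, and 2957 bases upstream and 1296 bases downstream of the Id3 TSS, in the TSS peak. The Id1 TSS peak held GGCGCC, 1099 bases upstream, followed after 5 bases by GACAG and not GTCTG. Other arrangements of SMAD letters were not searched, so this does not show that Id1 lacks a BMP-responsive element. The stretches are printed with these letters in capitals, 5′ to 3′ along the gene, so that the shared arrangement in Id2 and Id3 can be read beside Id1.

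Id2 (chr12:25783678-25783773, minus strand, mm9): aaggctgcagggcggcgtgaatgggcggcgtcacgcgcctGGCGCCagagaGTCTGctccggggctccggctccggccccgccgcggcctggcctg

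Id3 (chr4:135696415-135696510, plus strand, mm9): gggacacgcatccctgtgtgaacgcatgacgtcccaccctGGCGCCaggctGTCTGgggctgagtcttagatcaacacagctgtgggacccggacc

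Id1 (chr2:152560843-152560938, plus strand, mm9): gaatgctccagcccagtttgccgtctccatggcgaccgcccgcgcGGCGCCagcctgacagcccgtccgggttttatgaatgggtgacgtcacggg

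The genes around this network were taken from lists. Of 7 other Hes, Hey and related bHLH repressor genes, 2 had a TSS peak (Bhlhe41, 889 bp, and Heyl, 766 bp), and Hes2, Hes3, Hes7, Helt and Bhlhe40 had none. In the Notch pathway, 16 of 20 genes had a TSS peak with a median length of 1628 bp, and 7 were in the longest 10%, led by Notch1 (4087 bp), Mfng (3643 bp), Maml3 (3504 bp) and Rbpj (3217 bp). The ligand genes Dll3, Dll4 and Jag2 and the coactivator gene Maml2 had none.

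In the BMP pathway, 10 of 14 genes had a TSS peak with a median length of 1740 bp. Smad7 (4294 bp) and Smad6 (2608 bp), the inhibitory SMAD genes, and the receptor genes Bmpr2 (2598 bp) and Bmpr1a (2024 bp) had the longest. Bmp2, Bmp4, Bmp7 and Smad9 had none. Of the corepressors, which Hes and Hey proteins recruit, 8 of 9 had a TSS peak (median 1559.5 bp), with Tle3 (3938 bp) and Tle1 (2946 bp) in the longest 10% and none at Tle2. The E protein genes, whose products Id proteins bind, had TSS peaks in 3 of 3 (Tcf4, 2759 bp, Tcf12, 1970 bp, and Tcf3, 1782 bp). The proneural list holds proneural and other neural bHLH genes, some of which Hes proteins repress. In it, 3 of 9 had a TSS peak (Neurog2, 2275 bp, Bhlhe22, 1429 bp, and Atoh7, 1088 bp). Neurod1, Neurod2, Neurod4, Neurod6, Olig2 and Ptf1a had none.

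Read beside 49.8% of all protein-coding genes, the Notch, BMP, corepressor and E protein lists had TSS peaks more often and the proneural list and the other family genes less often, as plain counts with no test. The same libraries carried TSS peaks at 9 of 9 progenitor markers (median 5974 bp) and at 4 of 5 ganglion cell markers (none at Gap43). Markers of other tissues were mostly without a TSS peak, though some had peaks elsewhere in their windows. Of 6 pigment epithelium markers 1 had a TSS peak (Pmel, in a peak shared with the TSS of Cdk2), as did 2 of 5 lens markers (Prox1 and Bfsp1), 1 of 4 vascular markers (Kdr), 0 of 4 microglial and 0 of 4 liver markers. The paper names Prox1 among the transcription factor genes that LHX2 targets in the retina, so its peak is not read here as a sign of lens. Marks at progenitor genes and at ganglion cell genes were both present, and what each cell type contributed to the peaks of the 9 genes was not tested.

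**Figure D5:**
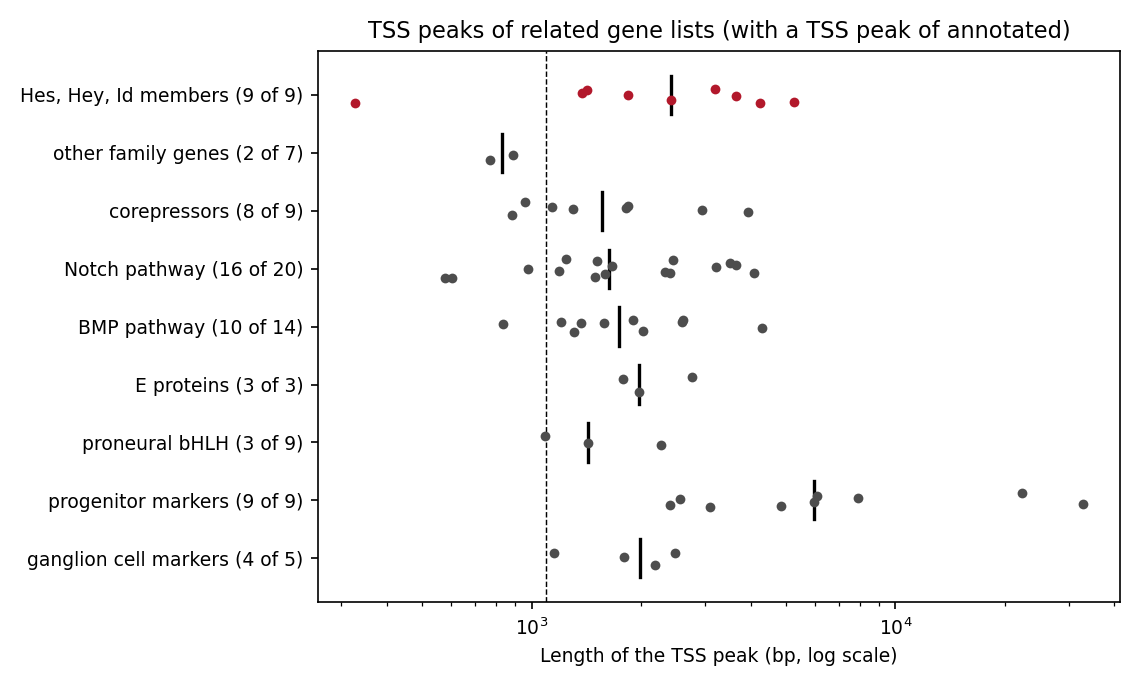
Length of the TSS peak (bp, log scale) of each gene that has one, by list, with the number of genes with a TSS peak of those annotated; black bars are list medians and the dashed line is the median of 1093 bp over all TSS peaks. The median of the members (red, 2421 bp) lies between those of the Notch pathway genes (1628 bp) and the progenitor markers (5974 bp).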

How the data were processed

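H3K27ac ChIP-Seq of E14 retina was analysed from 1 peak list. Per the file header, the authors ran MACS 2.1.0.20140616 in broad mode on the pooled replicates (broad cutoff 0.1, q cutoff 0.05, band width 300, d of 313, at most 1 tag per position). Per the study's methods, uniquely mappable reads had been aligned to mm9 with Bowtie2. Scaling of ChIP to control depth lowers pileup to the units of the shallower control. The signal values deposited by the authors are the mean pileup over each region. The fold enrichment deposited by the authors is a ratio to the local control background. The -log10 p-value and -log10 q-value deposited by the authors are means over each region.

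From these, peaks were assigned to GENCODE vM1 genes by an overlap of at least 1 bp, TSS peaks within 1000 bp of a TSS, and peaks were ranked from the highest value (rank 1). Where 2 peaks were equally near, the longer was taken. Lengths count both end bases. Motif backgrounds used the 250 bases before the 5′ end of 22362 genes, while the members' windows start at the coding TSS, and sequences were read from the mm9 genome. No annotated untranslated or coding base lies in a printed stretch. Overlap code was checked on simulated data. The members and lists were chosen with earlier results of these data known. Named were the members, genes with a TSS at a peak in their windows, up to 4 genes of each list with the longest TSS peaks and those without one, and the genes next to the member with the longest peak. Pmel, Cdk2 and the markers with a peak were named for that after their values were seen. Alternatives were other TSS definitions, windows of 20 and 100 kb, stricter limits, joined peaks and ranks among TSS peaks. The proneural list was used without 1 gene, which is not reported here. The other samples of the series were not analysed here. Computations used Python 3.11.15, numpy 2.4.6, pandas 2.3.3, scipy 1.17.1, matplotlib 3.10.9 and pysam 0.24.0.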

Additional observations from a re-analysis of the deposited data

How the results depend on the processing

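Under a minimum fold enrichment of 4 with q limited to 0.001, members with a TSS peak numbered 5 in place of 9 (Hey1, Hey2, Id2 and Id3 were lost) and peaks in the windows 14 in place of 28. The other definitions gave 8 or 9 members with a TSS peak, the 8 where the TSS base itself had to be covered. Windows of 20 and 100 kb held 19 and 37 peaks, and a q of at most 0.01 left 24. Ranked by pileup times length, a measure chosen after seeing the data, 5 members were in the top 10% in place of 0 by pileup, as were 12.4% of TSS peaks. Ranked among TSS peaks only, 5 members stayed in the longest 10%. Joining peaks less than 1000 bp apart changed nothing, since the smallest gap in the list was 1253 bp. Joining those less than 3000 bp apart, also chosen after seeing the data, placed 6 members and 10.5% of TSS regions in the longest 10%, with Hes1 at 7988 bp, Hes5 at 6909 bp, Id2 at 6224 bp and Id3 at 8728 bp, and the Hes5 region then includes the Pank4 TSS. Whether a stretch counts as 1 peak or several thus sets the length of these 4. The control has fewer tags than the ChIP libraries by a factor of 12.3, which limits the local background behind each fold enrichment. No paired analysis was possible because the replicates were pooled in 1 list.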
